A study of Mus musculus with 2 samples.

Results

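The DNA damage response and Fanconi genes described here are 37 protein-coding genes, named in a list, of the 21853 protein-coding genes of GENCODE release M21 on 21 mouse chromosomes. All 37 were found in the annotation. They comprised 8 genes of the Fanconi core complex, both genes of the ID2 complex, 6 genes of homologous recombination and crosslink repair, 4 damage kinases, p53 and 2 regulators of it, 3 genes of the MRE11 complex, 6 genes of end joining, and 5 other repair genes. Accessible chromatin was mapped by ATAC-seq, which reads where a transposase can cut into DNA, in blood-forming (haematopoietic) stem cells. The mice were adult, of strain C57BL/6J and 5 to 6 weeks old. The series has 1 group of 2 libraries, called biological replicates 1 and 2, which carry the same donor identifier, so it is unknown whether they came from separate animals. Replicate 2 started from 50000 cells, and no starting quantity is given for replicate 1. The labels do not name the markers by which the cells were isolated.

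The Fanconi pathway repairs DNA interstrand crosslinks, lesions that tie both strands together and that reactive aldehydes can form. A core complex of FANC proteins places ubiquitin on the FANCD2 and FANCI pair, and nucleases and recombination proteins then cut out and mend the lesion. Blood stem cells depend on this pathway: inherited loss of a Fanconi gene in humans causes bone marrow failure, and in mice p53 activity limits stem cells that carry unrepaired damage. The ATM and ATR kinases, the MRE11 complex and the end joining factors sense and rejoin broken ends.

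The conservative list, which keeps peaks reproduced between the replicates by irreproducible discovery rate (IDR), held 53241 peaks in 31532 regions. Replicate 1's own IDR thresholded list held 34588 regions, and replicate 2's held 22434. The more permissive pseudoreplicated lists held 78665 regions in replicate 1 and 58113 in replicate 2. Read depth is unknown, as these are lists of peaks. Of the marker genes, 7 of 10 for stem and progenitor cells had a promoter peak in the conservative list, all but Gata2, Procr and Ly6a, against 1 of 6 erythroid, 2 of 8 granulocyte and monocyte, 2 of 4 B cell, 0 of 5 T cell, 2 of 4 stromal and 0 of 2 hepatocyte markers. The share over all genes was 51.9%. In the IDR thresholded lists the stem and progenitor count was 5 of 10 in replicate 1 (52.2% over all genes) and 6 of 10 in replicate 2 (45.8%). Replicate 1 had 2 of 6 erythroid, 2 of 8 granulocyte and monocyte, 2 of 4 B cell and 2 of 4 stromal markers. Replicate 2 had 1 of 6, 0 of 8, 1 of 4 and 1 of 4, and neither had a T cell or hepatocyte marker. The contrast depended on the list. In the pseudoreplicated list of both replicates (66.3% over all genes) the stem and progenitor count was 10 of 10, against 4 of 6 erythroid and 6 of 8 granulocyte and monocyte. There, 2 of 4 B cell, 1 of 5 T cell, 3 of 4 stromal and 0 of 2 hepatocyte markers had one. An open promoter does not by itself name a cell type, and the part of other cells in the values below was not tested.

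All 37 genes had an accessible promoter, meaning a peak summit within 1 kb of any start site (TSS) of the gene's protein-coding transcripts, in the conservative list. The share over all genes was 51.9%. In replicate 1, all 37 had one in the IDR thresholded list, against 52.2% of all genes, and all 37 in the pseudoreplicated list, against 63.5%. In replicate 2, 35 of 37 had one in the IDR thresholded list, against 45.8% of all genes, and all 37 in the pseudoreplicated list, against 62%. The 37 promoter peaks lay in 37 separate regions, so no open region was counted for more than 1 of these genes.

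CpG-rich promoters were open in most genes. Over 250 bp on each side of the TSS, taking for each gene the TSS with the highest CpG ratio, the lowest CpG ratio (observed over expected CpG) of a DNA damage gene was 0.502, at Trp53, and the median was 0.890, against a median of 0.677 over all genes. Of the 13449 genes at or above 0.502, 76.3% had a promoter peak in the conservative list, against 12.8% of the 8404 genes below it. By GC content, the lowest of the 37 was 50.5%, at Xrcc5, and 66.2% of the 16213 genes at or above it had a promoter peak.

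The strength of each promoter peak is given as the authors' signal value, whose scaling is not stated, and as its percentile among the 11338 genes with a promoter peak in the conservative list. The 37 genes had a median signal of 11.2, against 9.78 over all genes with a promoter peak, and a median percentile of 67.8. Their signals spanned 5.04 at Trp53 to 17.0 at Xrcc4. By percentile, 28 of 37 lay above the median of all genes, 14 in the upper quartile and 3 in the lower quartile. Most of the set was thus in the upper part of the range of open promoters, with Trp53 near the bottom.

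**Figure D1:**
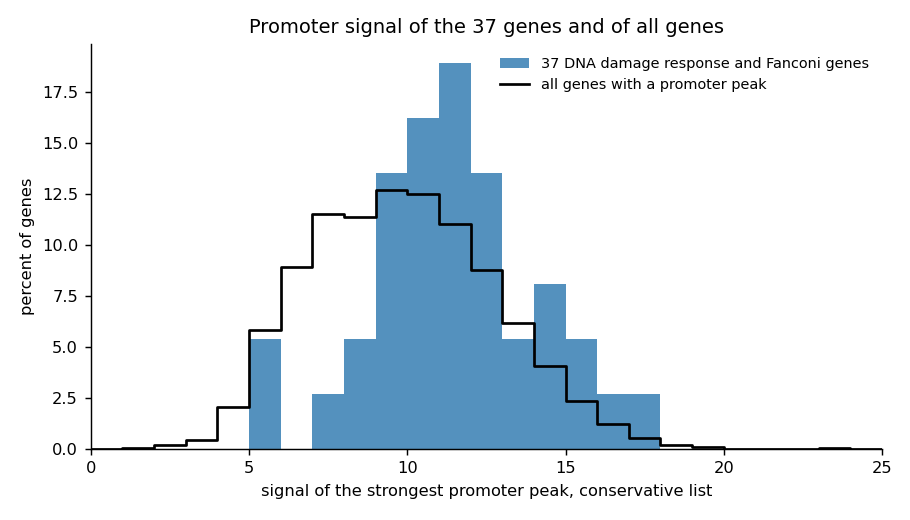
Percent of genes (vertical axis) in bins of 1 unit of the authors' promoter signal in the conservative list (horizontal axis), for the 37 DNA damage response and Fanconi genes (bars) and for all 11338 genes with a promoter peak (line). The bars are centred on a median of 11.2 and the line on 9.78, and 2 of the 37 genes (Trp53 and Fancm) lie in the bin that starts at 5.

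The promoter sequences at both ends of this range are shown from the mm10 genome as 100-base stretches beside the summit that hold no annotated exon, on the strand of the gene. Capitals mark CCAAT boxes (CCAAT or its complement ATTGG, bound by NFY) and GC boxes (GGGGCGGGG, bound by SP factors). Trp53bp1 (chr2:121271408-121271507, minus strand), Fancb (chrX:164980456-164980555, plus strand), Fanca (chr8:123318597-123318696, minus strand) and Brip1 (chr11:86201194-86201293, minus strand) are 4 of the 5 strongest. Mdm2 (chr10:117710822-117710921, minus strand) and Trp53 (chr11:69580256-69580355, plus strand) are among the 3 weakest. Brip1's stretch holds 3 CCAAT boxes, all in the complement, and Trp53bp1's and Fancb's hold none of these letters.
Trp53bp1: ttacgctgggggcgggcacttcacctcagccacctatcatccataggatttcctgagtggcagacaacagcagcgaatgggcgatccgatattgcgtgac
Fancb: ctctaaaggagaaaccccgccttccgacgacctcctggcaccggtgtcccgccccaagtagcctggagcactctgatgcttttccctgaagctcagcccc
Fanca: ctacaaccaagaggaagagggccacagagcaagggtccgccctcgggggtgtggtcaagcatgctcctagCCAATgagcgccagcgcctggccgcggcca
Brip1: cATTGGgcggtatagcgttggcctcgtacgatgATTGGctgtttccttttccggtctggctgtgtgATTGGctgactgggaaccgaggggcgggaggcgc
Mdm2: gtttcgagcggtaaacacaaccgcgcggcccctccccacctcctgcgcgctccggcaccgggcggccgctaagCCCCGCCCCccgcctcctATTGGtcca
Trp53: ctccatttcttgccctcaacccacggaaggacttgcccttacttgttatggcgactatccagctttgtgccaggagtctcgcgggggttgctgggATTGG

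Within the Fanconi core complex, Fancb, Fanca and Fancl had strong promoters and Fancm a weak one. Fancb, on the X chromosome and a partner of the ligase subunit, had a signal of 15.5 in the conservative list (percentile 96.9, region chrX:164980088-164980997), with 13.5 in replicate 1 and 16.5 in replicate 2. It was 1 of 4 members with a higher value in replicate 2. Fanca, the core subunit whose gene is most often mutated in patients, had 15.2 (percentile 96.1, chr8:123318225-123319054), with 15.5 in replicate 1 and 12.2 in replicate 2. Fancl, the ubiquitin ligase itself, had 14.4, with 15.2 in replicate 1 and 10.7 in replicate 2. These 3 genes stood above percentile 93 of all open promoters. Fancm, the DNA translocase that anchors the core complex, had 5.98 (percentile 8.31, chr12:65075341-65076087), with 5.94 in replicate 1 and 5.93 in replicate 2. Its signal was below the median of all open promoters in both libraries and nearly equal between them. Its rank was not equal: in the pseudoreplicated lists its percentile was 16.2 in replicate 1 and 36.3 in replicate 2. The other core subunits lay between, with Fancf at 13.0, Fance at 11.0, Fancc at 9.54 and Fancg at 9.31. Over the 8 core genes the median was 12.0.

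Both genes of the ID2 complex, the pair that the core complex marks with ubiquitin, had promoters near the middle of the range. Fancd2 had 10.5 in the conservative list, with 12.5 in replicate 1 and 6.19 in replicate 2. Fanci had 9.67, with 11.0 in replicate 1 and 7.43 in replicate 2. In both genes replicate 1 was the higher library.

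Among the genes of recombination and crosslink repair, the signals ran from 9.58 at Brca2 to 14.7 at Brip1, with a median of 11.7 over 6 genes. Brip1, a helicase that binds BRCA1, had a percentile of 94.4 (chr11:86200753-86201856), with 13.8 in replicate 1 and 11.7 in replicate 2. Palb2, the bridge between BRCA1 and BRCA2, had 12.9, and Rad51c, a recombination factor, had 12.2. Slx4, the scaffold for nucleases that cut out the crosslink, and Brca1, which directs broken ends to recombination, had 11.2 each. Brca2, a mediator of homologous recombination, was 1 of the 2 genes with no promoter peak in the IDR thresholded list of replicate 2. Its signal was 11.7 in replicate 1, in both of that library's lists, and 5.47 in replicate 2, in the pseudoreplicated list alone.

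The damage kinases all had open promoters in both libraries. Atm, the kinase activated by double-strand breaks, had 14.2 (percentile 92.7), with 14.3 in replicate 1 and 12.6 in replicate 2. Atr, the kinase activated by single-stranded DNA at stalled forks, had 10.4, with 11.8 in replicate 1 and 6.88 in replicate 2. Of their effector kinases, Chek2 had 11.3, with 11.0 in replicate 1 and 10.1 in replicate 2, and Chek1 had 9.80, with 11.3 in replicate 1 and 6.21 in replicate 2.

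Of the p53 genes, Trp53 and Mdm2 had weak promoters and Mdm4 did not. Trp53, which encodes p53, had the lowest signal of the 37 at 5.04 (percentile 2.79, chr11:69579994-69580499). The peak at that summit had 5.39 in replicate 1 and 4.60 in replicate 2. Replicate 1 also had a peak of 6.77 at a summit 907 bp further upstream, outside that region, and this was its strongest within 1 kb. Mdm2, the ubiquitin ligase that degrades p53, had 7.67 (percentile 24.9, chr10:117710318-117711064), with 8.90 in replicate 1 and 5.87 in replicate 2. The replicate 2 value came from the pseudoreplicated list, because Mdm2 was the other gene with no promoter peak in replicate 2's IDR thresholded list. Over all genes, 7.81% had a promoter peak in the IDR thresholded list of replicate 1 and not of replicate 2, 1.38% the reverse, and 44.4% in both. Mdm4, the relative of Mdm2 that blocks p53's activation domain, had 12.2, with 12.0 in replicate 1 and 9.83 in replicate 2.

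In the MRE11 complex, which senses and trims broken ends, Mre11a (the nuclease) had 13.7, Rad50 (the ATPase that tethers ends) 12.6, and Nbn (the adaptor that recruits ATM) 8.45. Nbn was the fourth lowest of the 37 (percentile 33.9, chr4:15957775-15958887), with 8.28 in replicate 1 and 8.26 in replicate 2. Nbn had 2 summits of similar signal in the conservative list: 8.45 at 437 bp downstream of the nearest TSS and 7.77 at 16 bp. The strongest summit lay 18 bp downstream of the TSS in replicate 1 and 433 bp in replicate 2.

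The end joining genes included both the highest signals and the fifth lowest. Xrcc4, the partner of DNA ligase IV, had 17.0 (percentile 99.2, chr13:90089016-90090052), with 15.4 in replicate 1 and 16.1 in replicate 2. Trp53bp1, an adaptor that shields broken ends from trimming, had 16.1 (percentile 98.1, chr2:121270861-121271809), with 16.4 in replicate 1 and 13.9 in replicate 2. These were the top members in the conservative list, although the ligase that XRCC4 serves was near the other end. Lig4 had 8.73 (percentile 37.1, chr8:9976002-9976676), with 9.39 in replicate 1 and 7.55 in replicate 2. Xrcc5 and Xrcc6, which encode the Ku heterodimer that first grips a broken end, had 11.4 and 10.9, and Prkdc, the kinase that Ku recruits, had 11.4.

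Parp1, the sensor of nicks, had 11.2, the mismatch repair genes Msh6 and Pms2 had 10.8 and 12.1, and the excision repair gene Ercc1 had 10.3. Xpa, which checks damage in excision repair, had the percentile 53.3, with 11.8 in replicate 1 and 7.01 in replicate 2. All 5 lay in a narrow band, and none was in the lower quartile.

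**Figure D2:**
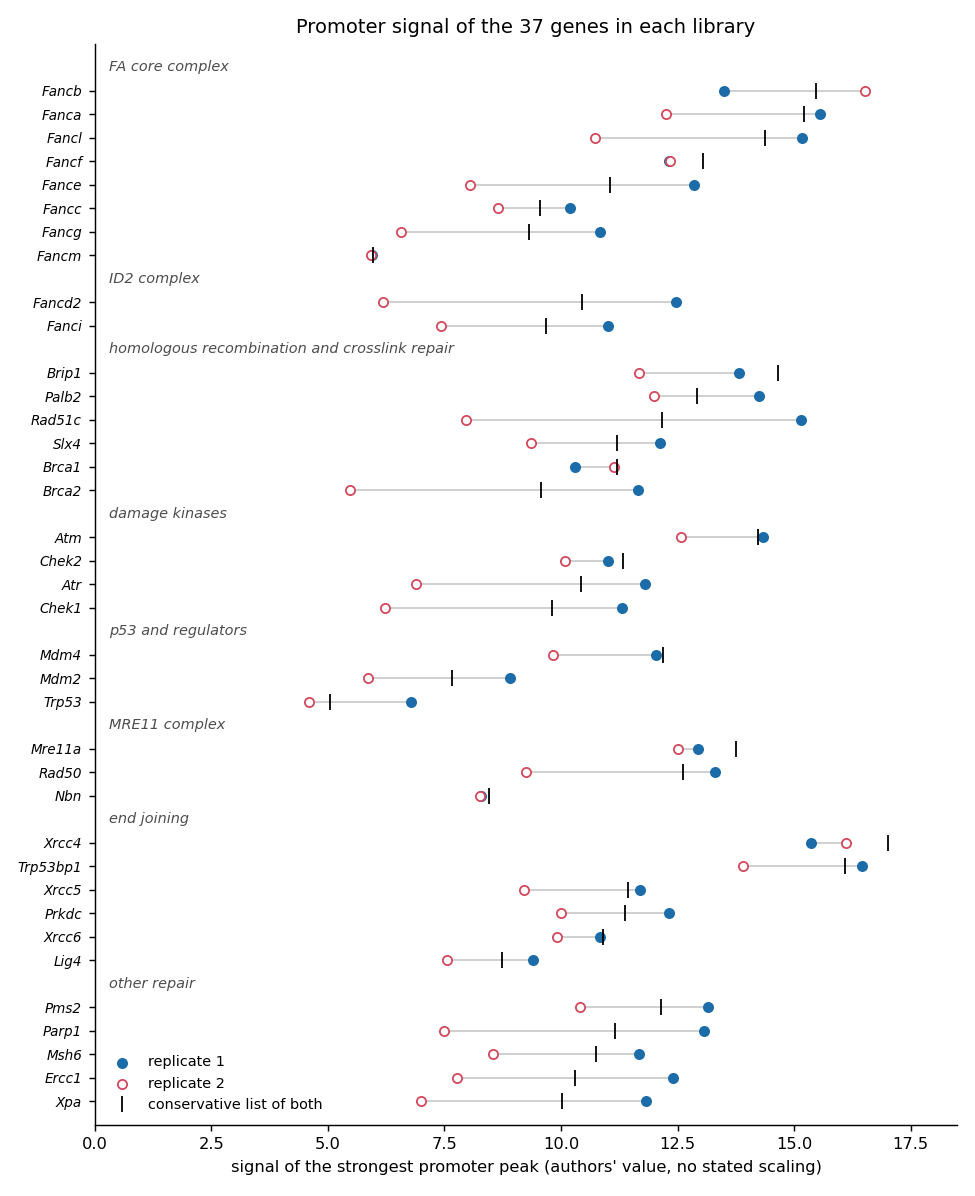
Signal of the strongest promoter peak (horizontal axis, the authors' value) of each of the 37 genes, grouped by role, with filled points for replicate 1 and open points for replicate 2, both from the pseudoreplicated lists, and ticks for the conservative list. Replicate 1 is the higher library in 33 genes and replicate 2 in Fancb, Fancf, Brca1 and Xrcc4, and a library's strongest peak can be at another summit than the tick's, as at Trp53.

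The signals of both libraries could be set side by side in the pseudoreplicated lists, where every member had a promoter peak. The median of the 37 was 12.1 in replicate 1 and 9.21 in replicate 2. Replicate 1 was higher in 33 of 37 genes, and in 93.3% of the 13053 genes with a promoter peak in both pseudoreplicated lists, so the offset was not limited to these genes. The order of the 37 genes was shared in part: Spearman's rho between the replicates was 0.640 over the 37 genes, against 0.806 over all 13053 genes. The points share a library on each axis, and the 37 genes cover a narrower range of signals. In the signal itself the widest gaps were at Rad51c, with 15.1 in replicate 1 and 7.96 in replicate 2, at Fancd2, and at Brca2. By percentile within each library, which takes out the offset but compares lists of different lengths, they were at Brca2 (67.5 in replicate 1 and 30.3 in replicate 2), Brca1 (54.1 in replicate 1 and 91.2 in replicate 2) and Fancd2 (75.4 in replicate 1 and 39.6 in replicate 2). The Brca1 values came from a summit beside a TSS of Nbr1, a neighbouring gene. At the summit nearest to Brca1's own TSS in the IDR thresholded lists, replicate 1 had the higher signal. Percentiles were not taken there.

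These values are the strongest promoter peak of each library, and in 5 genes (Fancc, Trp53, Mdm2, Nbn and Lig4) that peak lay over 100 bp from the summit of the conservative list in 1 of the libraries. With the summit nearest to the conservative one in each library, at most 81 bp away, replicate 1 was higher in 32 genes and replicate 2 in 5, Nbn being the gene that changed sides. Brca1 was counted among those 5 at the summit beside the Nbr1 TSS, not at the one nearest to its own TSS. At that summit replicate 1 had 8.60 at Mdm2, 7.84 at Nbn and 9.07 at Lig4, and replicate 2 had 7.64 at Fancc.

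A number of these promoters were shared with a neighbouring gene that is transcribed the other way. A TSS of an opposite-strand gene lay within 1 kb of the summit in 13 of 37 (35.1%), against 18.8% of all 11338 promoters. The 13 with a partner had a median signal of 12.1 and the 24 without one 10.6, whereas over all genes the medians were 10.3 with a partner and 9.61 without. The pairs were Fancb with Mospd2, Fancd2 with Emc3 (a membrane protein insertase subunit), Brca1 with Nbr1 (an autophagy receptor), Palb2 with Dctn5 (a dynactin subunit), Rad51c with Tex14, Atm with Npat (a coactivator of histone genes), Chek2 with Hscb, Trp53 with Wrap53 (a telomerase and Cajal body protein), Mre11a with Ankrd49, Prkdc with Mcm4 (a subunit of the replicative helicase), Xrcc6 with Desi1, Xrcc4 with Tmem167, and Pms2 with Aimp2. Accessibility at such a site cannot be divided between the genes that share it.

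The distance to each start shows how far this matters. In 7 of the 13 pairs the strongest summit was nearer to the partner's TSS than to the member's own. At Brca1 that summit was 795 bp from the nearest Brca1 TSS and 20 bp from an Nbr1 TSS, and the summit 80 bp upstream of the Brca1 TSS had a signal of 6.97, against 11.2 at the stronger one. At Prkdc the strongest summit was 401 bp from the Prkdc TSS and 88 bp from the Mcm4 TSS, and the summit nearest to Prkdc's own TSS had 8.01, against 11.4. The strongest summit sat between the nearest start of the member and the nearest start of its partner in 11 of the 13 pairs, all but Brca1 and Fancd2. At Palb2, for example, it was 66 bp from the Palb2 TSS and 29 bp from the Dctn5 TSS. At Fancd2 it was 42 bp from the Fancd2 TSS and 12 bp from the Emc3 TSS, with both starts on the same side. When each peak was counted for the gene of the nearest TSS alone, Fancd2, Atm and Pms2 lost their promoter peak, Palb2 had 4.61 and Trp53 2.91, and the median percentile of the remaining 34 was 66.4.

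Several members were open at an internal start. When the 5′-most TSS alone was used, 33 of 37 genes had a promoter peak in the conservative list, against 48.4% of all genes, and Fancc, Xrcc6, Mdm4 and Fancl did not. Fancc's strongest summit lay 65750 bp downstream of its 5′-most annotated TSS, beside an internal one, and Mdm4's lay 5159 bp downstream. In replicate 2's pseudoreplicated list Fancc also had a weaker peak, of 5.56, at 96 bp downstream of its 5′-most TSS. At Fancl the distance was 1348 bp. Over the 37 genes the summit lay a median of 47 bp from the nearest TSS, against 64 bp over all genes, and within 100 bp in 27 of 37 (73%), against 64.7%.

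**Figure D3:**
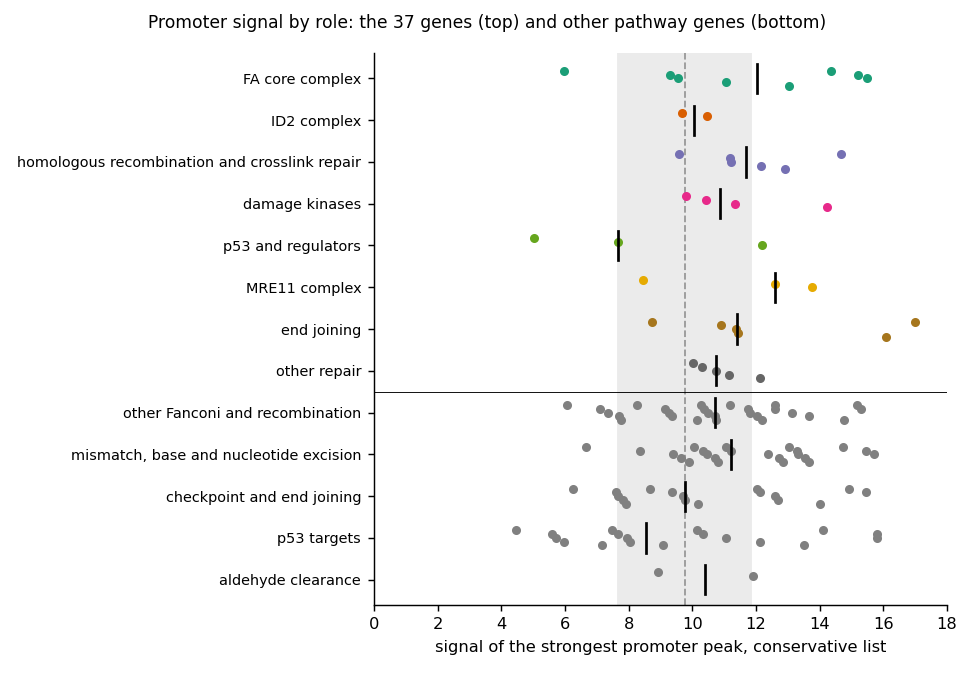
Promoter signal in the conservative list (horizontal axis, the authors' value) of each gene by role, with the 37 genes above the line and the other pathway genes below it; bars are medians, the shaded band is the interquartile range of all genes with a promoter peak and the dashed line their median of 9.78. The p53 genes have the lowest median of the 8 roles, 7.67, and the p53 target genes the lowest of the other lists, 8.55.

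Short consensus letters were counted on both strands within 100 bp of each promoter summit, which describes the sequence and does not show binding. CCAAT was present at 17 of 37 promoters (45.9%), against 35.7% of all 11338. The ETS letters CCGGAAG were at 10 (27%), against 18%, but another ETS pattern, AGGAAGT, was at 2 (5.41%), against 8.18%. The core of the cAMP response element, TGACGT, was at 6 (16.2%), against 12%, and the GC box GGGGCGGGG at 6, against 16.8%. The NRF1 letters GCGCATGCG were at Fancl, Fancm and Xpa (8.11%, against 2.85%), and the YY1 letters AAGATGGCG at none, against 2.94%. The letters CACGTG (E-box) were at 3 (8.11%), against 8.56%, and TTTGAA (cell cycle homology region) at 1 (2.7%), against 5.29%. Of letters bound by blood factors, TGTGGT (RUNX) was at 2 (5.41%), against 9.16%, and AGATAA at none, against 2.38%. A pair of p53 CATG cores with exactly 10 bases between them was at none, against 0.212%. Cores at other spacings, including those of adjoining p53 half-sites, were not searched. The windows are short, and a match is a run of letters only.

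The E2F letters had the largest ratio of shares among the motifs found at any member. Any of TTTCCCGC, TTTGGCGC or TTTCGCGC was present at 6 of 37 promoters (16.2%), against 2.52% of all 11338. E2F factors drive genes of DNA replication and the cell cycle. In the promoter table of RefSeq for GRCm38.p6, which matched 33 of the 37 genes and spans 250 bases before to 50 after the start, they were present at 6 of 33, against 2.12% of 27025 promoters. The motif was chosen from several, so the count is a description. The 27025 RefSeq promoters were not limited to open ones, unlike the 11338, so the 2 backgrounds differ. In the same RefSeq table the ETS letters CCGGAAG were at 12 of 33, against 9.93%, CCAAT at 20 of 33, against 41.1%, the NRF1 letters at 3 of 33, against 1.95%, the GC box at 6 of 33, against 12.9%, and the cAMP response core at 6 of 33, against 8.37%. The other ETS pattern, AGGAAGT, was at 4 of 33, against 10.7%. TTTGAA was at 0 of 33, against 20.2%, where the share of the 11338 open promoters was 5.29%. The 6 sites found near the summits are shown because they are the letters counted, each as 30 bases of mm10 on the strand of the gene with the match in capitals. They are at Chek1 (chr9:36726597-36726626, minus strand), Chek2 (chr5:110839820-110839849, plus strand), Fancd2 (chr6:113531694-113531723, plus strand), Fancg (chr4:43010335-43010364, minus strand), Rad51c (chr11:87404477-87404506, minus strand) and Xrcc6 (chr15:82016312-82016341, plus strand). None overlapped another of the motifs searched. In 4 of them the match reads GCGGGAAA, the complement of TTTCCCGC.
Chek1: agcaggttttgGCGGGAAAagctgtgcatt
Chek2: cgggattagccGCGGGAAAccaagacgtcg
Fancd2: ccgttcttctaGCGGGAAAgtcgaaaacga
Fancg: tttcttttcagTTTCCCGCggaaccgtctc
Rad51c: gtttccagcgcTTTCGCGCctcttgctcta
Xrcc6: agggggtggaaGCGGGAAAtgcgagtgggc

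These 6 promoters had signals of 9.31 at Fancg to 12.2 at Rad51c in the conservative list, none of them among the 5 highest or the 5 lowest of the 37. In replicate 1 they had 10.8 at Fancg, 12.5 at Fancd2, 11.3 at Chek1, 15.1 at Rad51c, 10.8 at Xrcc6 and 11.0 at Chek2. In replicate 2, the lower library over most genes, they had 6.57 at Fancg, 6.19 at Fancd2, 6.21 at Chek1, 7.96 at Rad51c, 9.92 at Xrcc6 and 10.1 at Chek2.

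**Figure D4:**
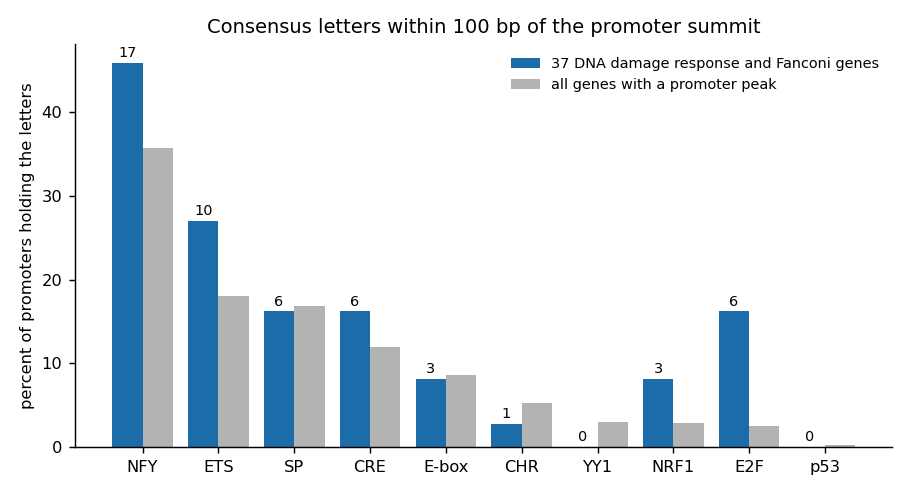
Percent of promoters (vertical axis) that hold each set of consensus letters within 100 bp of the summit, for the 37 genes (dark bars, with the number of genes above) and for all 11338 genes with a promoter peak (grey bars). The E2F letters are at 6 of the 37 (16.2%) and at 2.52% of all promoters.

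Other letters sit together in single promoters. Pms2, which shares its promoter with Aimp2, is shown because its 100 bases (chr5:143909848-143909947, plus strand) hold CCAAT boxes, the ETS letters and the cAMP response core, in capitals. Prkdc's stretch (chr16:15637438-15637537, plus strand), at the summit nearer to Mcm4, holds a CCAAT box and the ETS letters. Brca2's (chr5:150522530-150522629, plus strand) holds the cAMP response core on both strands, read as TGACGTCA, and is shown as a promoter that passed the IDR threshold in replicate 1 only.
Pms2: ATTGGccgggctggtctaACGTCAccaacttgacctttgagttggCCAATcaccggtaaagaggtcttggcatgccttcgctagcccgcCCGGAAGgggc
Prkdc: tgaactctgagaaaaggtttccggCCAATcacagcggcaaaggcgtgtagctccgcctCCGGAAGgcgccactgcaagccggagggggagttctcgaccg
Brca2: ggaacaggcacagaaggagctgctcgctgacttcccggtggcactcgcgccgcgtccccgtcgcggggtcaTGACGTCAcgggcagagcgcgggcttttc

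Distal open regions, whose summit lay over 1 kb from every protein-coding TSS, were about as frequent around these genes as around all genes. In the conservative list 26 of 37 had at least 1 within 50 kb of a TSS, against 61.9% of all genes. In replicate 1 the number was 30 in the IDR thresholded list, against 64.3% of all genes, and 34 in the pseudoreplicated list, against 81.6%. In replicate 2 it was 19 in the IDR thresholded list, against 49.4%, and 31 in the pseudoreplicated list, against 76.8%. The mean was 1.43 regions per member and 1.45 per gene over all genes in the conservative list. The 53 regions had a median signal of 7.63, against 7.96 over all 20306 distal regions, and 19 of 53 were above that median. Of the 20306, 14589 lay within 50 kb of a gene, and the median of those alone was not taken. The promoters of the 37 genes were thus mostly above the median of open promoters, and the distal regions near them mostly below the median of all distal regions.

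For most of these regions another gene had the nearest TSS. The member had the nearest TSS in 16 of 53, or 30.2%, against 46.1% of all 31623 pairs of a gene and a distal region within 50 kb. The regions lay in introns in 25 cases, between genes in 19, in coding exons in 6 and in untranslated exons in 3, and 11 were inside the body of a member. Coding exons held 11.3% of the regions near members, against 2.8% of the 14589 distal regions within 50 kb of any gene. In replicate 1's pseudoreplicated list all 53 were overlapped, and in replicate 2's 49, or 92.5%, against 97.6% of all distal regions. Distance does not show which gene a region acts on.

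The 5 strongest distal regions were near Xrcc4, Pms2, Fancc and Msh6. The strongest, chr13:90136093-90136674, lay 46.7 kb upstream of Xrcc4 in an intron of Tmem167, with a signal of 18.7 in the conservative list (percentile 99.8 of distal regions), 19.5 in replicate 1 and 14.6 in replicate 2. It exceeded the Xrcc4 promoter, the strongest of the 37. Near Pms2, chr5:143893432-143893921 lay 16.4 kb upstream in a coding exon of Ankrd61, 1.42 kb from that gene's TSS, with 13.7, and had 15.1 in replicate 1 and 10.6 in replicate 2. Near Msh6, chr17:87968621-87969008 lay 6.31 kb upstream between genes, with 11.4, and had 12.5 in replicate 1 and 7.96 in replicate 2, where it was in the pseudoreplicated list alone. All 5 were found in both libraries.

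Fancc had 4 distal regions and supplied 2 of the 5 strongest. One, chr13:63394370-63395293, lay in an intron of Fancc, 3.29 kb downstream of an internal TSS, with 13.2, and had 14.4 in replicate 1 and 9.29 in replicate 2. The other, chr13:63528060-63528778, lay 31.2 kb upstream in an intron of Ptch1, the Hedgehog receptor gene, with 11.9, and had 12.7 in replicate 1 and 9.82 in replicate 2. The 100 bases at the summits of the Xrcc4 region (chr13:90136265-90136364, plus strand) and of the intronic Fancc region (chr13:63394830-63394929, plus strand) are shown as the strongest region of all and the strongest inside the body of a member. Capitals mark the RUNX letters TGTGGT, here as the complement ACCACA, which the Fancc stretch holds at 2 places and the Xrcc4 stretch does not hold. RUNX factors are regulators of blood stem cells, and these letters were at 16 of the 53 regions (30.2%), against 30.4% of all distal regions.
Xrcc4 distal: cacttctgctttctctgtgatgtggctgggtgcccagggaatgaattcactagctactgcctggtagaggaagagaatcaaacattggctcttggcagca
Fancc distal: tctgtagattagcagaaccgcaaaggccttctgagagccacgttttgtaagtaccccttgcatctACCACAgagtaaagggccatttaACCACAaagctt

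Other letters in the distal regions were likewise counted on both strands. The letters AGATAA, which a family of blood zinc finger factors binds, were at 7 of 53 (13.2%), against 8.71% of all distal regions, and AGGAAGT, bound by ETS factors, at 8 (15.1%), against 22.9%. A region may hold several of these.

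The number of distal regions per member ran from 0 to 7. Ercc1, a subunit of an excision nuclease, had 7, a number reached or passed by 1.15% of all genes. Of these, 4 had Fosb as the gene of the nearest TSS and 1 had Ercc1, so the cluster sits mostly at that neighbour. Fanci had 5, of which 3 lay in Abhd2, and Rad51c, Fancc and Mdm4 had 4 each. Trp53 had 2, both in its own introns and both weak: the one 1.12 kb from a TSS had 5.30, and the one 5.58 kb away had 5.21 and was in neither list of replicate 2. No distal region was found in the conservative list for Fancb, Fancf, Fancl, Brca1, Brca2, Brip1, Atm, Chek1, Trp53bp1, Xrcc5 or Lig4. Fancf, Brip1 and Chek1 had none in any of the lists of either replicate that were searched. The genes with no distal region in the conservative list had promoter signals from 8.73 at Lig4 to 16.1 at Trp53bp1. The strong promoters of Xrcc4 and Fanca had 1 distal region each. The absence depended on the list: Fancb had 5 in replicate 1's pseudoreplicated list and 1 in replicate 2's. In the pseudoreplicated list of both replicates, 36 of the 37 genes had at least 1, against 83% of all genes.

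**Figure D5:**
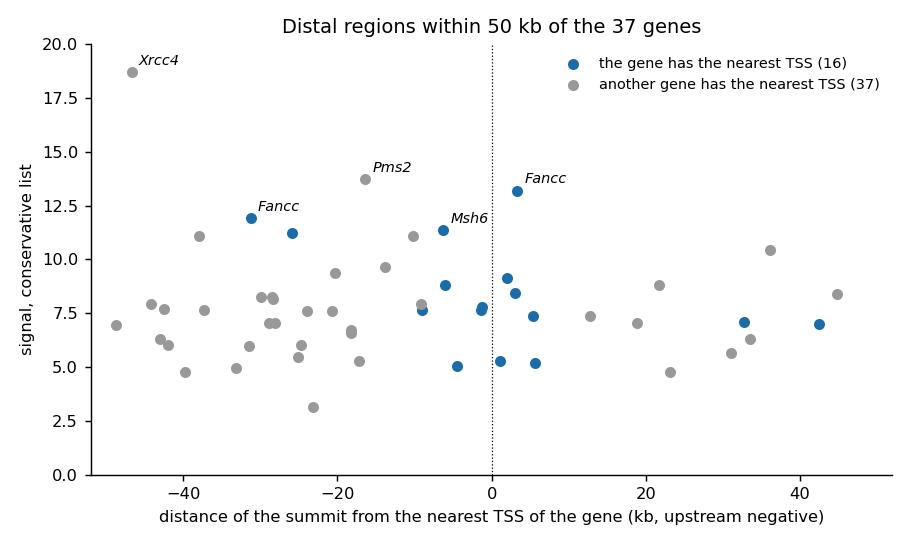
Signal in the conservative list (vertical axis) of the 53 distal regions within 50 kb of the 37 genes, by distance of the summit from the nearest TSS of the gene in kb (horizontal axis, upstream negative); dark points are the 16 regions for which the gene has the nearest TSS and grey points the 37 for which another gene has it. The region near Xrcc4 is the highest, at 18.7.

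The other genes of the pathway, 88 in 5 lists, were nearly all open too. A promoter peak was present in 87 of 88 in the conservative list (51.9% over all genes), in 85 in replicate 1's IDR thresholded list and in 80 in replicate 2's. The exception was Nhej1, an end joining factor that works with XRCC4. Its nearest summit in the conservative list was 78065 bp from its TSS, at Slc23a3, and in the pseudoreplicated lists 29590 bp away in replicate 1 and 29581 bp in replicate 2. Nhej1 therefore had no peak summit within 1 kb of an annotated protein-coding TSS in any list searched, while its partners Xrcc4 and Lig4 did. Starts outside this annotation were not searched.

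Among 27 other Fanconi and recombination genes the median signal was 10.7, and the highest were Ercc4 (the nuclease partner of ERCC1) at 15.3, Ube2t (the ubiquitin-conjugating enzyme that serves FANCL) at 15.2 and Rfwd3 (a ubiquitin ligase) at 14.7. Among 23 genes of mismatch, base and nucleotide excision repair it was 11.2, with Xrcc1 (a scaffold of single-strand break repair) at 15.7 and Ercc2 (a helicase) at 15.5 among the highest. Among the 17 open genes of checkpoint and end joining it was 9.76, led by Atrip (the partner of ATR) at 15.5, Rad1 (a checkpoint clamp subunit) at 14.9 and Clspn (an adaptor for CHK1) at 14.0. Of the aldehyde-clearing enzymes, Adh5, which removes formaldehyde, had 11.9, and Aldh2, which removes acetaldehyde, had 8.91.

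All 18 p53 targets had a promoter peak in the conservative list, where the share over all genes was 51.9%, and 16 of 18 had one in each replicate's IDR thresholded list. Cdkn1a and Phlda3 had none in that list of replicate 1, and Bbc3 and Phlda3 none in that of replicate 2. The targets had a median signal of 8.55 and a median percentile of 35.3. The highest were Ccng1 at 15.8, Aen at 15.8 and Polk at 14.1. Cdkn1a, the cell cycle inhibitor that p53 induces, had 5.73, and Bbc3, the death gene PUMA, had 4.45. Cdkn1a, Phlda3 and Bbc3 were named after their values were seen.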

How the data were processed

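Peak lists on mm10 were deposited by the authors as part of ENCODE, with an aligner, peak caller and scaling not given in the sources used here. Each peak's signal and its score, which is at most 1000, are the authors' deposited values, and intervals for counting error cannot be given since depth is unknown. Each replicate's IDR thresholded and pseudoreplicated lists come from that library alone, per the deposited notes. Ranked lists were not used here.

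Genes and start sites came from GENCODE M21 (54361 TSS), and sequence from GRCm38.p6, where 99.9% of annotated start codons read ATG. A gene's promoter peak was the peak of highest signal with its summit within 1 kb of a protein-coding TSS. Overlapping peaks were merged into regions, placed at the summit of highest signal, and called distal when that summit was over 1 kb from every TSS. Percentiles are mid-ranks among genes with a promoter peak in that list. Named in full were the members with the 5 highest and 5 lowest signals, those in 1 replicate only, the 5 strongest distal regions, and, per list of other pathway genes, the 3 highest and any with no promoter peak. A gene that this rule names is not reported here. The members and lists were chosen with earlier results of these data known. With 1 group of 2 libraries no test was made. The search was checked on simulated peaks. Python 3.11.15, pandas 2.3.3, numpy 2.4.6 and pysam 0.24.0 were used. The alternatives tried were other lists, single replicates, stronger peaks, other windows, the 5′-most TSS and the nearest TSS.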

Additional observations from a re-analysis of the deposited data

How the results depend on the processing

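Across 11 alternatives the number of genes with a promoter peak stayed between 33 and 37 of 37, and across 10 alternatives the number with a distal region within 50 kb ran from 18 (within 25 kb) to 36 (replicated or pseudoreplicated list of both), each within 1.5 times the number reported. The share over all genes moved with it: within 25 kb it was 44.6%, and in the replicated list 81.1%. With replicate 1 alone 37 genes had a promoter peak and 30 a distal region, and with replicate 2 alone 35 and 19. Among peaks above the median signal, Trp53 and Fancm had no promoter peak.

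The median percentile of promoter signal was 67.8. It was 66.0 with replicate 1 alone and 68.8 with replicate 2 alone. It moved by more than the spread between the replicates (SD 1.93) in the IDR thresholded list of both replicates, where it was 70.4, and over the 24 promoters with no other gene's TSS within 1 kb, where it was 61.9. Alternatives chosen after seeing the data gave 66.4 when each peak was counted for the gene of the nearest TSS alone, 74.4 in the replicated list, 74.8 in the pseudoreplicated list of both replicates, 72.1 in that of replicate 1 and 76.5 in that of replicate 2. In the replicated list the members' median signal was 11.2, as in the conservative list, and the median over all genes was 8.76, against 9.78.

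No paired analysis was possible because the series has 1 group. Without read depth, a missing peak shows only that none passed the authors' threshold.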
